A study of Mus musculus with 4 samples.

Results

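Meis1, Meis2, Meis3, Pbx2, Pbx3, Pbx4, Pknox1 and Pknox2 encode TALE homeodomain proteins, and SOX3 binding around these 8 genes, of 22367 protein-coding genes in the GENCODE vM1 annotation, was examined in mouse neural progenitor (NP) cells. The genes were chosen by family, and the rule used no measured value. NP cells were derived from R1 embryonic stem cells, an established mouse line, by 4 days of culture in N2B27, a serum-free medium, and SOX3-bound chromatin was precipitated with a goat polyclonal antibody in 3 independent samples (replicates 1, 2 and 3). An input sample without antibody served the authors as background for calling peaks and was not analysed here. All samples came from 1 cell line in 1 condition, so no treated or mutant group exists for comparison, and peak lists hold no expression values with which the identity of the cells or the transcription of these genes could be checked. Every peak that overlapped the gene body or the 100 kb to either side of it (the window of the gene) was taken from each list.

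TALE proteins carry a homeodomain with a loop of extra amino acids. MEIS proteins and PKNOX proteins (also called PREP) form dimers with PBX proteins, and these dimers act as cofactors of HOX and other transcription factors in the patterning of the hindbrain, limb and other tissues. SOX3 belongs to the SOXB1 group, HMG-box proteins that are expressed in neural progenitors and bind short AT-rich words in the minor groove of DNA.

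The lists held 18816 peaks in replicate 1, 8096 in replicate 2 and 40543 in replicate 3. Each peak has a score, 10 times the negative log10 of its p-value, with 50 as the lowest value in each list. Scores depend on the depth of a library, which the lists do not give. Each was therefore also expressed as a percentile, its place within its own list from 0 for the lowest to 100 for the highest. A common site was a stretch where peaks from all 3 lists overlapped, and 5537 such sites were present in the genome. Replicates 2 and 3 stood closer to each other than to replicate 1. Where a peak of replicate 2 overlapped one of replicate 3, the 2 shared their first base in 34.5% of cases, compared with 0.922% for replicates 1 and 2 and 1.63% for replicates 1 and 3. In the windows of the 8 genes, 5 of 17 such pairs of replicates 2 and 3 shared their first base, and at 3 of the 12 common sites both ends were identical. How far these 2 replicates are independent was not tested.

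Common SOX3 sites were present around 5 of the 8 genes. Meis2 had 4, Pknox2 had 3, Meis1 and Pbx3 had 2 each, and Pbx4 had 1, whereas Meis3, Pbx2 and Pknox1 had 0. Of all protein-coding genes, 42.1% had at least 1 common site in such a window, 16.2% had at least 2 and 3.63% had at least 4. Long genes have long windows, and the 5 genes with sites include the 4 with the longest windows. Among genes with a window at least as long as that of Meis1 (339 kb), 54.6% had a common site. With 50 kb to each side, 4 of the 8 genes had a site (28.7% of all genes). With 200 kb it was 7 of the 8 (60.5%). With peaks at a p-value of 1e-10 or less it was 4 (23.5%). Over the 8 windows together, which span 2500 kb, there were 0.480 common sites per 100 kb, against 0.326 over the windows of all protein-coding genes.

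**Figure D1:**
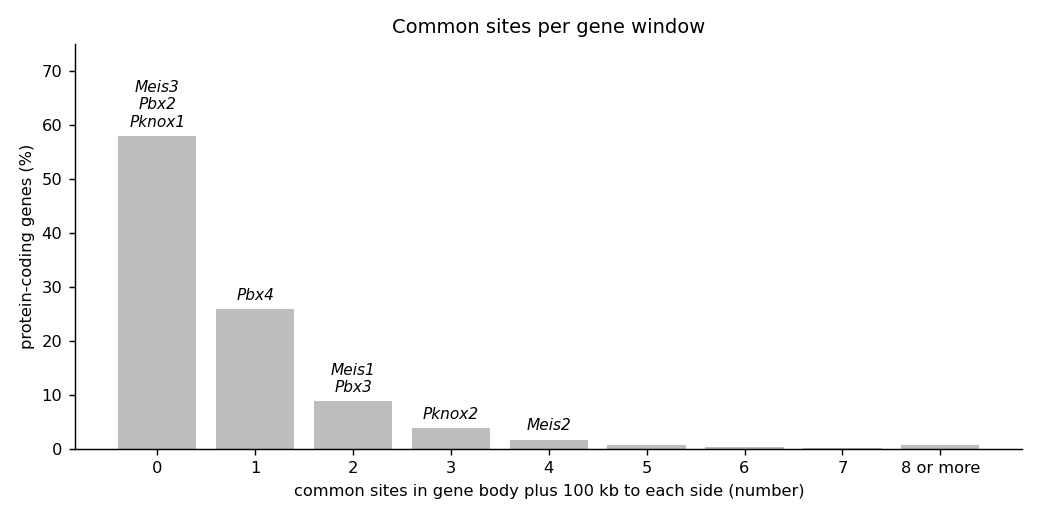
Share of all 22367 protein-coding genes (vertical axis, percent) by number of common SOX3 sites in the gene body plus 100 kb to each side (horizontal axis), with the 8 TALE genes named above the bar that holds them. Meis2 lies in the tail with 4 sites, and Meis3, Pbx2 and Pknox1 fall in the tallest bar, with 0 sites.

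The lists of replicates 1 and 3 covered more of the genes than the common sites did. Replicate 1 had a peak in the windows of 8 of the 8 genes (81.7% of all protein-coding genes), replicate 2 in 5 (54.2%) and replicate 3 in 8 (94.7%). The 124 peaks, 44 from replicate 1, 17 from replicate 2 and 63 from replicate 3, merged into 89 regions. Of these, 12 held peaks of 3 replicates, 11 of 2 replicates and 66 of 1 replicate only. The share with all 3 replicates was 13.5% (95% Wilson interval 7.88 to 22.1%), a range that includes the 10.5% over all merged regions. This and the other intervals cover counting error only. Peaks outside the common sites had median percentiles of 27.2 in replicate 1 (32 peaks), 32.4 in replicate 2 (5 peaks) and 41.9 in replicate 3 (51 peaks), against 38.4, 24.5 and 43.6 for such peaks over the genome. Some were nevertheless high, up to the 92.1th percentile in replicate 1, in the Pbx2 window, and the 94.0th in replicate 3, in the Pknox2 window.

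**Figure D2:**
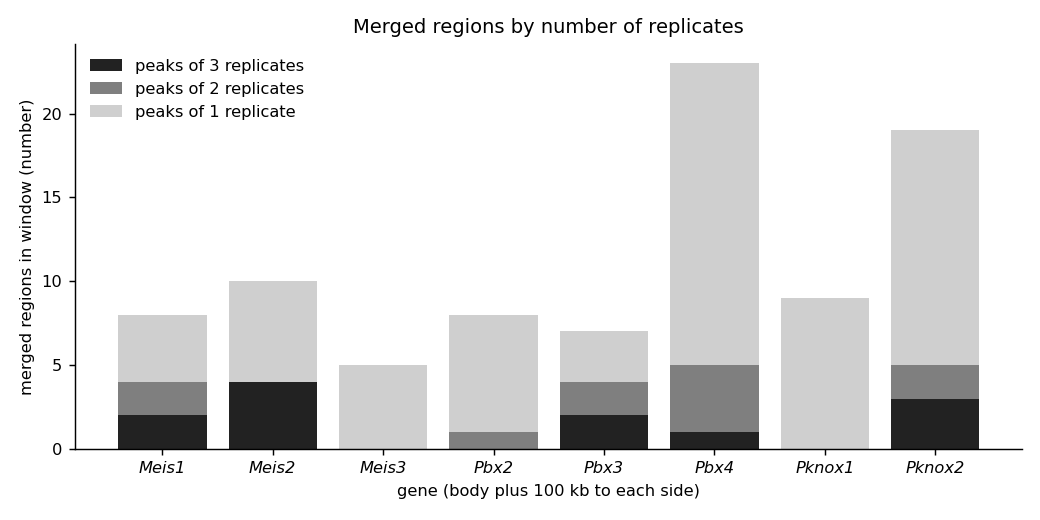
Number of merged peak regions (vertical axis) in the window of each gene (horizontal axis), stacked by how many replicates contributed a peak. All 5 regions of Meis3 and all 9 of Pknox1 came from 1 replicate, and Pbx4 had the most regions, 23, of which 1 was common.

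The MEIS genes divided into 2 with sites and 1 without. Meis1 (ENSMUSG00000020160, chr11:18780433-18918961, minus strand, mm9) is known for its part in leukaemia, haematopoiesis and limb patterning. Its strongest common site lay at chr11:18974206-18974559, 55.4 kb upstream of the gene, in intergenic sequence. Replicate 1 scored 563 there, replicate 2 scored 254 and replicate 3 scored 350, at percentiles 97.0, 90.1 and 97.0, so that this was the site with the highest score in replicates 1 and 2 among the 12. No start of another protein-coding gene was closer to it than that of Meis1. The second common site lay 5.81 kb beyond the 3′ end of Meis1 and was uneven between replicates, with scores of 226, 80.4 and 51.7 in replicates 1 to 3, the last just above the lowest possible score. Within the gene body there were 6 merged regions but no common site. Of these, 2 regions with peaks of replicates 1 and 3 lay near the 3′ end, and the one at chr11:18785786-18786126 reached percentiles of 86.8 and 81.7.

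The sequence under the upstream Meis1 site is shown because it was the most highly ranked of the 12 in its weakest replicate. In this and the following sequences, the plus strand of mm9 is given 5′ to 3′, and capitals mark matches on either strand to the searched SOX, POU and TALE words.
Meis1 upstream, chr11:18974233-18974532: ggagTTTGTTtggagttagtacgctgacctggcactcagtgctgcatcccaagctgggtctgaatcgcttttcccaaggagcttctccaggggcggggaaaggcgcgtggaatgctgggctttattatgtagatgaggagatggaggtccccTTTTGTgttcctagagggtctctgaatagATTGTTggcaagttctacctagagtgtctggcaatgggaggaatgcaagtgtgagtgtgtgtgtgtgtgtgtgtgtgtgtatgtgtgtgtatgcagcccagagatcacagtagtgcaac

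Meis2 (ENSMUSG00000027210, chr2:115688800-115891575, minus strand) is a close paralogue of Meis1 that is widely expressed in the developing brain. Its 4 common sites were all gathered at the 3′ end of the gene, within a span of 20.8 kb. The strongest, at chr2:115684957-115685302, lay 3.67 kb beyond the 3′ end and 206 kb downstream of the 5′ end. It had scores of 397, 206 and 352 in replicates 1 to 3, at percentiles 94.7, 86.3 and 97.0. The other 3 lay in intron 9 of 12, a long intron that runs from 115694540 to 115747407. The site at chr2:115705321-115705726 was high in each replicate, with scores of 257, 173 and 224. By contrast, the sites at 196.5 and 195.6 kb from the 5′ end, whose middles are 0.974 kb apart, were high in replicate 3 (percentiles 92.2 and 95.5) and lower in replicate 1 (58.2 and 4.04). Of the 10 merged regions of Meis2, 9 lay more than 150 kb downstream of the 5′ end, and the only region near the 5′ end was a weak peak of replicate 3 (score 51.3). The annotation gives Meis2 several transcripts with internal starts, and the intronic pair lay 3650 and 2676.5 bp from the closest of these.
Meis2 downstream, chr2:115684980-115685279: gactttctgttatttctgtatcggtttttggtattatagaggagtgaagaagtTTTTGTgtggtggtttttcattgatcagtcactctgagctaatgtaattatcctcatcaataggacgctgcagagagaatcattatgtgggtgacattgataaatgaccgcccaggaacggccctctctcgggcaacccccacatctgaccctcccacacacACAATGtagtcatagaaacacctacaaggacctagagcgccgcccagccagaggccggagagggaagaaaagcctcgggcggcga

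Meis1 and Meis2 thus each had a common site just beyond the 3′ end, and the sequences of these 2 sites resembled each other. In a local alignment, which was chosen after the sequences were seen, 75 of 98 columns (76.5%) were identical, with 8 gap columns and a longest identical run of 12 bases. The alignment score was 74. Of the 66 pairs among the 12 common sites this was the highest, with 27 as the next. Over the 3916 pairs of all merged regions it was also the highest, but the next, at 65 and in the opposite orientation, was close. That pair joined the region of the upstream Meis1 site and a region of replicate 1 alone in intron 9 of Meis2, chr2:115705085-115705238. Against the 5536 other common sites of the genome, each of the sites scored 74 or more with 1 site only, its counterpart, and the next score was 37 for either. The matching stretches had the same orientation relative to their genes, both of which lie on the minus strand. Capitals here mark the bases identical in both.
Meis1 downstream, chr11:18774607-18774701: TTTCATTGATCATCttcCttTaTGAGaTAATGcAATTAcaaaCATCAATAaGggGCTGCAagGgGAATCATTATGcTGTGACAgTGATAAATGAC
Meis2 downstream, chr2:115685048-115685140: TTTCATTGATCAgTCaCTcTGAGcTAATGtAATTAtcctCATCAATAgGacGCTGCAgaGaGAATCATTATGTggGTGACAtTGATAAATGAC
SOX3 signal at the pair was unequal, with percentiles of 87.3, 48.5 and 10.7 in replicates 1 to 3 at Meis1 against 94.7, 86.3 and 97.0 at Meis2. The Meis1 site of the pair was no longer common at a p-value of 1e-10 or less, with equal numbers of peaks or with 50% reciprocal overlap. Whether SOX3 contacts the shared stretch itself cannot be read from peaks of this width.

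Meis3 (ENSMUSG00000041420, chr7:16760729-16771853, plus strand), a gene known for a role in hindbrain patterning, had 0 common sites. Its 5 regions each came from 1 replicate, 2 from replicate 1 and 3 from replicate 3, and 4 of the 5 lay at promoters of other genes. The best was a peak of replicate 3 at chr7:16683329-16683699 (score 87.6, percentile 75.5), 293 bp from a start of Napa. The closest common site was 176 kb away.

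**Figure D3:**
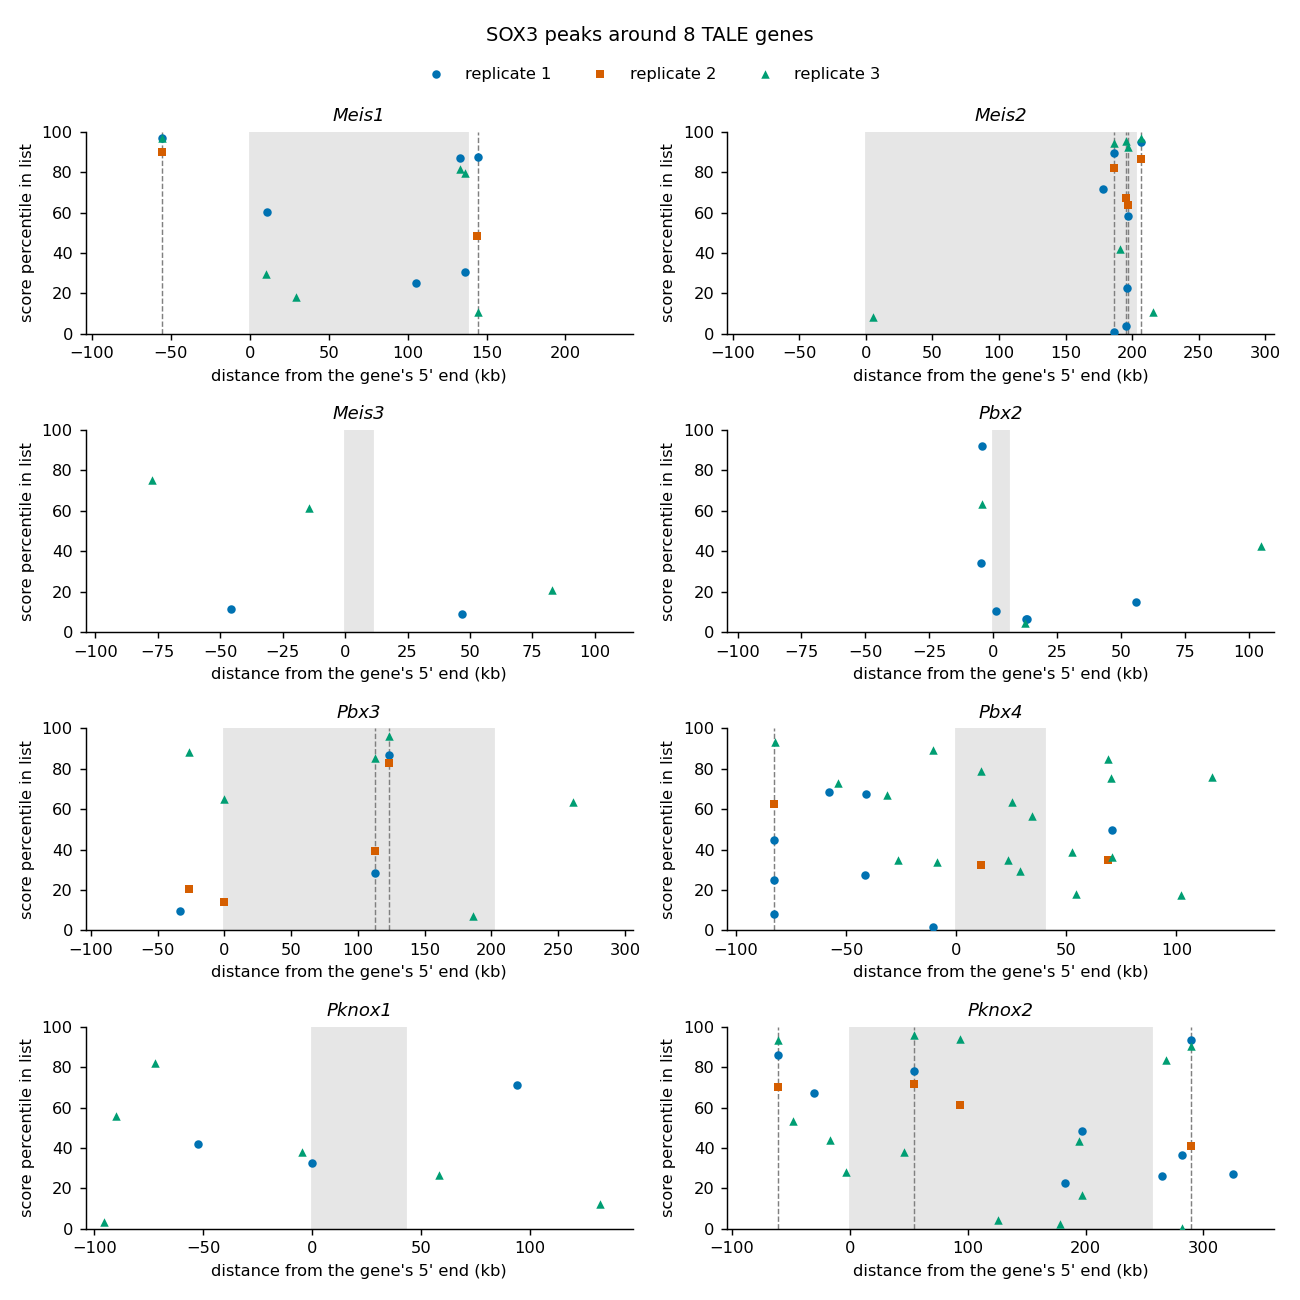
SOX3 peaks in the windows of the 8 genes. Each panel plots the score percentile of a peak within its list (vertical axis) against the distance from the gene's 5′ end in kb (horizontal axis, positive downstream), grey boxes mark gene bodies, symbols mark replicates and dashed lines mark common sites. The 4 common sites of Meis2 crowd around its 3′ end, while Meis3, Pbx2 and Pknox1 have none.

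PBX proteins are the partners with which both MEIS and PKNOX dimerise. Pbx3 (ENSMUSG00000038718, chr2:34026977-34228660, minus strand) had 2 common sites, 11 kb apart in intron 2 of 7, a long intron from 34080167 to 34226343. The stronger, at chr2:34105042-34105383, lay 123 kb downstream of the 5′ end, with scores of 218, 179 and 300 in replicates 1 to 3 and percentiles of 86.6, 83.1 and 96.3. The weaker scored 59.7, 70.5 and 115. Peaks of replicates 2 and 3 had identical ends at each of the 2 sites. A region at the 5′ end of Pbx3, chr2:34228709-34228869, had peaks in replicates 2 and 3 (scores 54.5 and 73.9) but none in replicate 1. The stronger intronic site is shown as the one with the highest lowest percentile in the window, and its sequence holds SOX, POU and TALE words, including the octamer ATGCAAAT and TGACAG.
Pbx3 intron 2, chr2:34105063-34105362: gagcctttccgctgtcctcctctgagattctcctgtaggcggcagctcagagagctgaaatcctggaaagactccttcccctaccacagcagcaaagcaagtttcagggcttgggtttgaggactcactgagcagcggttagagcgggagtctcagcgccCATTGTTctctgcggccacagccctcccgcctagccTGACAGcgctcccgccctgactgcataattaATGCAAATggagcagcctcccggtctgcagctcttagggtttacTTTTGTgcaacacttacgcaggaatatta

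Pbx4 (ENSMUSG00000031860, chr8:72356523-72397062, plus strand) had the most peaks of the 8 genes, 8 in replicate 1, 3 in replicate 2 and 18 in replicate 3. They formed 23 regions, or 9.56 per 100 kb, which placed the window at the 97.7th percentile of all protein-coding genes. Most were not shared between replicates, since 18 regions came from 1 replicate, and 12 of the 23 lay at a promoter of one of the 12 protein-coding genes in the window. Chromosome 8 as a whole was rich in peaks, with 28.5 per Mb in replicate 3 against 15.3 over the genome, and 10.2 against 7.09 in replicate 1. Among the 1082 genes of chromosome 8 the window stood at the 91.6th percentile. The part of the chromosome in the count of Pbx4 was not tested further. The only common site of the window belonged by position to another gene. It lay 11 bp from a start of Zfp963, 82.7 kb upstream of Pbx4, with scores of 70.7, 103 and 196, and held none of the searched words over its whole width.
Pbx4 window, Zfp963 promoter, chr8:72273773-72273927: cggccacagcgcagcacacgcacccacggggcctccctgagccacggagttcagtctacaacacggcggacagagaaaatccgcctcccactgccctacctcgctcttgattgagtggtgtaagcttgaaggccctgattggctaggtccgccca

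Pbx2 (ENSMUSG00000034673, chr17:34728211-34734345, plus strand) lies in a dense part of chromosome 17, with 14 protein-coding genes in its window. It had 9 peaks, 6 of replicate 1 and 3 of replicate 3, and 0 common sites, the closest being 250 kb away. The best region, chr17:34723669-34724070, was in an intron of Notch4, 4.34 kb upstream of Pbx2, with a score of 310 in replicate 1 and 72.2 in replicate 3 and no peak in replicate 2. A weak peak of replicate 1 (score 53.0) lay 87.5 bp from a start of Pbx2.

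The PKNOX genes differed from each other. Pknox2 (ENSMUSG00000035934, chr9:36698570-36954899, minus strand), the paralogue with the more restricted expression, had 27 peaks in 19 regions and 3 common sites. Its strongest site by the weakest replicate was at chr9:36900598-36900927, in intron 1 of 11 and 54.1 kb downstream of the 5′ end, with scores of 152, 124 and 273. This was the only one of the 3 that lay within Pknox2 and closest to its start. The others lay in intron 3 of Fez1, 33.3 kb beyond the 3′ end of Pknox2 (scores 347, 71.8 and 154), and 128.5 bp from a start of Tmem218, 60.9 kb upstream (scores 211, 120 and 198). A further intronic region, chr9:36861612-36861979, had peaks at percentiles 61.5 and 94.0 in replicates 2 and 3 and none in replicate 1. The first intron site is shown by the same rule.
Pknox2 intron 1, chr9:36900613-36900912: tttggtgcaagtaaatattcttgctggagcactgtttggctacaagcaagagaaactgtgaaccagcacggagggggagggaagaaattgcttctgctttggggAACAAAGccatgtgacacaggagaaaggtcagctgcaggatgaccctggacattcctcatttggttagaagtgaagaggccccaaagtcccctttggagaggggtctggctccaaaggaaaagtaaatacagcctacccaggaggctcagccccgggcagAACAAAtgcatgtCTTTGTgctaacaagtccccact

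Pknox1 (ENSMUSG00000006705, chr17:31701718-31744638, plus strand), the broadly expressed paralogue, had 3 peaks in replicate 1, 0 in replicate 2 and 6 in replicate 3, none of which overlapped another. The highest by percentile, a peak of replicate 3 at chr17:31629569-31629801 (score 102, percentile 81.9), was closest to Wdr4. In replicate 1, the peak at chr17:31795651-31796009, 131 bp from a start of U2af1, had a higher score (123) at a lower percentile (71.3). A peak of replicate 1 lay 61 bp from the Pknox1 start (score 61.4). The limit of 100 kb decided the count here, because a common site near Pde9a was 101 kb from the gene, just outside, with scores of 95.9, 54.6 and 109. The farthest common site inside a window was the Zfp963 site, 82.6 kb from Pbx4.

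By family, 6 of the 12 common sites were in windows of MEIS genes (0.630 per 100 kb), 3 in those of PBX genes (0.354) and 3 in those of PKNOX genes (0.429). Common sites within 2000 bp of a member's own start were found for 0 of the 8 genes (4.49% of all protein-coding genes). A peak of any replicate was that close for Pbx2, Pbx3 and Pknox1, 3 of the 8, against 28.1% of all genes. With 8 genes, neither count is read as a difference from the share over all genes. Of the 12 sites, 6 were inside the gene and 8 were closer to a start of the named gene than to that of any other protein-coding gene. Those 8 belonged to 4 genes (Meis1, Meis2, Pbx3 and Pknox2), and 16.6% of all protein-coding genes were the closest gene of a common site. These 4 genes have the longest windows of the 8, and this count is not read as a difference either. By location, 7 of the 12 sites (58.3%) were intronic, 3 (25%) intergenic, 2 (16.7%) at promoters, both of other genes, and 0 exonic. Over all common sites, 29.5% were intronic, 50.6% intergenic, 18.5% at promoters and 1.43% exonic. The 12 sites were taken from in or near genes, most of them long, whereas all common sites were not limited by distance to a gene. The shares are therefore not like for like, and no difference is read from them.

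The peaks at the 12 common sites ranked near those of other common sites. Their median percentile was 86.3 in replicate 1, 68.5 in replicate 2 and 93.9 in replicate 3, against 82.2, 64.8 and 92.8 over all common sites. Replicate 3 had the highest percentile at 9 of the 12 sites and replicate 2 the lowest at 7. At 6 sites each replicate stood above the 70th percentile. These were the upstream Meis1 site, the outer pair of Meis2, the stronger Pbx3 site, the intronic Pknox2 site and the Tmem218 site. The remaining 6 had at least 1 replicate with a modest score, down to the 4.04th percentile in replicate 1 at Meis2. None of the peaks at the 12 sites was mostly repeated sequence. In such a peak, more than 50% of the 50-base words occur at more than 1 place in the genome. Such a peak was present at 17.7% of all common sites. For 0 of 12 the Wilson interval has an upper bound of 24.2%, which includes that share, so no difference is read.

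**Figure D4:**
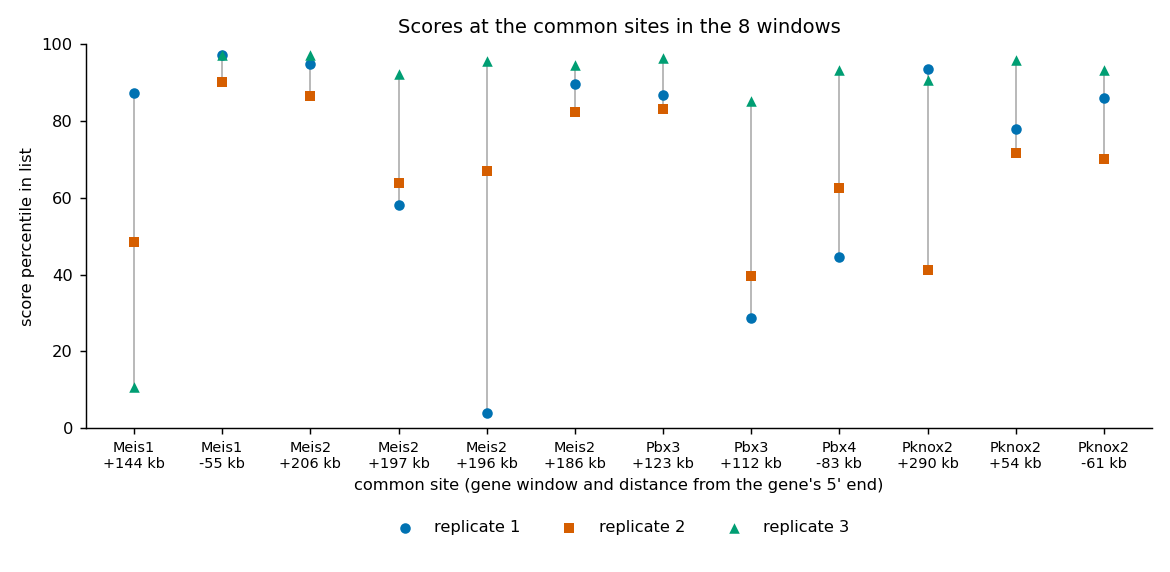
Score percentile within each list (vertical axis) at the 12 common sites (horizontal axis, labelled by gene window and distance from the gene's 5′ end), with 1 symbol per replicate and a line over their range. The replicates lie close together at the upstream Meis1 site and far apart at the Meis2 site 195.6 kb from the 5′ end (labelled +196 kb), where replicate 1 is at 4.04.

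SOX words occurred in the 12 sites about as often as in other common sites, within wide intervals. AACAAA or AACAAT was present in 6 of the 12 (50%, 95% Wilson interval 25.4 to 74.6%), against 53.0% of all common sites and 38.8% of equally wide windows placed 2000 bp away on either side. GACAAA or GACAAT was present in 3 (25%, 8.89 to 53.2%), against 38.5 and 24.9%. At least 1 of these 4 words was present in 8 of the 12 sites and in 68.5% of all common sites. The more permissive set ACAAAA or ACAAAG or ACAATA or ACAATG, which overlaps both, was in 8 (66.7%, 39.1 to 86.2%), against 74.4 and 55.6%. The flanks of the 12 sites themselves held the 3 sets nearly as often as the sites, at 45.8, 25 and 58.3% of 24 windows. The POU octamer, ATGCAAAT or ATGCTAAT, was in 1 site, the stronger one of Pbx3 (8.33%, 1.49 to 35.4%), against 9.84 and 3.21%, and in 3 of the 24 flanks of the 12 sites (12.5%). The joined SOX/POU word was in 0 sites, which leaves an upper bound of 24.2%, against 6.47% of all common sites and 1 of the 24 flanks of the 12 sites (4.17%).

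Words bound by TALE proteins themselves were also counted. TGACAG, the core word of MEIS and PKNOX proteins, was present in 4 of the 12 sites (33.3%, 13.8 to 60.9%), against 22.3% of all common sites and 16.8% of their flanks, and 4 of the 24 flanks of the 12 sites (16.7%). These were the downstream Meis1 site, both Pbx3 sites and the Pknox2 window site within Fez1. TGATTGAT, a PBX with HOX word, was in the weaker Pbx3 site (1 site, 8.33%, against 2.69% of all) and at the same share in the flanks of the 12 sites (2 of 24), and TGATTTAT was in 0 (2.02% of all). The joined PBX/MEIS word, which contains TGACAG, was in 0 (0.343% of all). The shares over all common sites lay within the intervals of the 12 sites for each of the 9 words, and no difference was detectable with 12 sites. When 200 bp centred on each site was searched instead, the joined PBX/MEIS word was in 1 window of 12 (8.33%, 1.49 to 35.4%). It was at the Zfp963 promoter, at chr8:72273936-72273945, beyond the end of the common site. The share over all common sites, 0.307%, was below that interval, but 1 match among the 9 words is not read as a difference.

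**Figure D5:**
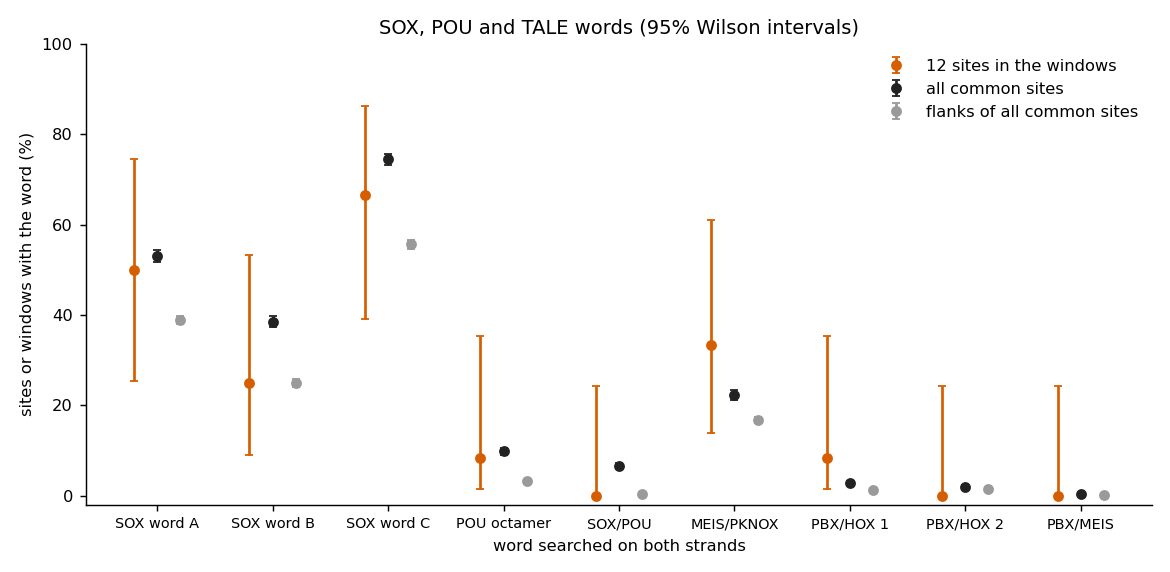
Percent of sites or windows that hold each searched word (vertical axis) for the 12 sites, all common sites and the flanks of all common sites, with 95% Wilson intervals. SOX word A is AACAAA or AACAAT, B is GACAAA or GACAAT, and C is ACAAAA or ACAAAG or ACAATA or ACAATG; MEIS/PKNOX is TGACAG, PBX/HOX 1 is TGATTGAT, PBX/HOX 2 is TGATTTAT and PBX/MEIS is the joined word, and every interval of the 12 sites includes the value of all common sites.

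Other TALE genes and a PBX partner were examined by the same rule. Of 10 such genes, 6 had a common site, 11 sites in total, beside the 42.1% of all protein-coding genes with at least 1. Irx3, an Iroquois gene that acts in the patterning of the ventral neural tube, had 4 (1.97 per 100 kb), at the 98.1th percentile of protein-coding genes, with Meis2 (0.993 per 100 kb) at the 93.0th. Tgif1, a repressor of TGF-beta and retinoid signalling, and Irx6 had 2 each, and Irx4, Irx5 and Pbxip1, which encodes a PBX-binding protein, had 1 each. Tgif2, Irx1, Irx2 and Mkx had 0. Irx3, Irx5 and Irx6 lie together on chromosome 8, where peaks were dense in each replicate.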

How the data were processed

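SOX3 ChIP-seq was measured in 3 samples of NP cells. The authors aligned the reads to mm9 (Bowtie 1.0.0 in the submitters' processing notes), used MACS with the input as background to call peaks sample by sample (p-value of 1e-05 or less), and deposited a list of each sample's peaks with a score, -10 times log10 of that p-value. The MACS version is not given in the sources used here. Scores were not normalized between samples, so ranks and percentiles within a list were used. No reads or input were analysed here and the depth is unknown.

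Common sites were stretches covered by a peak of each replicate (at least 1 bp shared), and regions were merged overlapping peaks of any replicate. Genes came from GENCODE vM1 on NCBIM37, the same assembly as mm9, with starts of protein-coding transcripts. A promoter site has its middle within 2000 bp of such a start. Words were matched exactly, on both strands, in each site and in flanks 2000 bp away. In each window, the site with the highest lowest percentile over the lists was named with its sequence, every common site near the gene's own start was to be named, and for a gene without a common site the best region was named; further sites were named after their values were seen. Alignments scored 2 for a match, -3 for a mismatch, -5 to open and -2 to extend a gap. No hypothesis test was run, since there is 1 condition. The genes, lists and words were chosen with earlier results of these data known. Alternatives were windows of 50 and 200 kb, a p-value of 1e-10, equal list sizes, 50% reciprocal overlap, midpoints within 300 bp, each replicate left out, mostly multi-copy peaks left out, sites closest to the gene only, other promoter distances and 200 bp word windows. The procedure was tested on simulated data. Python 3.11.15, numpy 2.4.6, scipy 1.17.1, numba 0.67.0, Biopython 1.88 and matplotlib 3.10.9 were used.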

Additional observations from a re-analysis of the deposited data

How the results depend on the processing

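The number of genes with a common site, 5 of 8, ranged from 4 to 7 over the alternatives. The 12 common sites became 21 with 200 kb and 6 at a p-value of 1e-10 or less, and ranged from 12 to 18 with a replicate left out. The share of regions with a peak of each replicate, 13.5%, was 24.0% at 1e-10, 28.6% with equal numbers of peaks, and from 20.2 to 27.0% with a replicate left out, where agreement of only 2 lists is required. Sites at promoters numbered 4 within 5000 bp, and TGATTGAT was in 0% of the sites at 1e-10. The joined PBX/MEIS word, absent from the sites as defined, was in 1 window of 200 bp (8.33%, 1.49 to 35.4%), against 0.307% of all common sites. That match lay outside the common site itself, and 1 match is not read as a difference. Of 88 counts per gene, 65 were within 1.5 times the count given. Pbx4 went to 0 under 5 alternatives (50 kb, 1e-10, equal numbers, reciprocal overlap and closest gene only), the downstream Meis1 site was lost under 4 (1e-10, equal numbers, reciprocal overlap and closest gene only), and Pbx2 gained 1 site, in Notch4, without replicate 2. Meis2 fell from 4 to 2 at 1e-10, Pbx3 from 2 to 1 at 1e-10 and with equal numbers, Meis1 from 2 to 1 with 50 kb, without its upstream site, and Pknox2 from 3 to 1 with closest gene only. Other counts rose, Pbx4 from 1 to 3 with 200 kb and without replicate 1 or 2, Meis1 from 2 to 4 with 200 kb and without replicate 2, and Pbx3 from 2 to 4 without replicate 1. Of 27 word shares, 26 stayed inside the interval given. The causes were not tested. No paired analysis was possible because there is 1 group of ChIP samples and no test. Depth is unknown, so the absence of a peak is not absence of binding.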

Other observations

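Beyond 100 kb and within 200 kb of the gene there were 9 further common sites, 2 each for Meis1, Meis3 and Pbx4 and 1 each for Meis2, Pbx3 and Pknox1. The one with the highest scores lay in an intron of Sae1, 179 kb from Meis3 (chr7:16950510-16950973), at percentiles of 99.4, 95.6 and 99.5 in replicates 1 to 3, above any of the 12 sites in the windows. A site 139 kb beyond the 3′ end of Meis2 (chr2:115549230-115549587) was also high in each replicate (percentiles 89.0, 85.5 and 97.4). It lay in an intron of another gene and was closest to a start of BC052040, 142 kb away. With this site counted by position alone, Meis2 had 5 common sites within 200 kb.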
